A study of Mus musculus with 8 samples.

Results

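The circadian clock genes described here are 10 named genes: Clock, Per1, Per2, Per3, Cry1, Cry2, Nr1d1, Nr1d2, Dbp and Tef. They were taken by symbol from an array table of mouse kidney that held values for 22180 named genes. Of the 10, 9 had a probe set that named 1 gene. The only probe set for Per2 also named 9830107B12Rik, so no value is given for Per2. The average level of 8 of the 9 measured members lay above the filter on low values, and these 8 were tested among 7145 genes. Cry1 lay below the filter.

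Whole kidneys were frozen from mice aged 2 months, and total RNA of each mouse was hybridized to 1 array. There were 3 double mutants (Col4a3-/-OPN-/-), 3 single mutants (Col4a3-/-) and 2 wild type mice, so 8 arrays in all. Both mutant groups lack Col4a3, a chain of type IV collagen in the glomerular basement membrane whose loss models Alport syndrome, and the double mutants also lack osteopontin (OPN). The sources used here do not state strain, sex, litter or the time of day at which each kidney was taken, so genotype and time of sampling cannot be told apart. Each array is named by its genotype and replicate number, and replicate numbers carry no order.

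Sex was read from Xist and 3 Y-linked genes. Double mutants 1 and 2 and single mutants 1 and 3 were read as female, and double mutant 3, single mutant 2 and both wild type mice as male. Col4a3 did not pass the test in either mutant group (double mutant minus wild type -1.75, adjusted p = 0.0998, single mutant minus wild type -1.29, adjusted p = 0.162, limma), and the sources used here do not state whether its probes lie in the deleted part. Array medians ran from 5.18 to 5.25 on the log2 scale. Of 8 kidney markers measured 7 lay above the filter. The podocyte gene Nphs1 was below it, with a mean of 6.53. In whole kidney, fewer cells of a type and less RNA per cell cannot be told apart.

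The circadian clock is a loop of transcription factors that runs in nearly every mammalian cell. The proteins CLOCK and BMAL1 (the product of Arntl) bind E-box sequences and switch on the Per and Cry genes, whose proteins then block CLOCK and BMAL1. The nuclear receptors encoded by Nr1d1 and Nr1d2 repress Arntl through ROR response elements, and the factors encoded by Dbp, Tef and Hlf act on D-box sequences of output genes. In the mouse kidney most of these genes rise and fall over the day, and Arntl and its partner Npas2 peak at nearly the opposite time to Nr1d1, Dbp and the Per genes. The level of a rhythmic clock gene in 1 kidney can therefore depend on the hour at which the kidney was taken. That hour is not known here, and its part in the values was not tested.

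The promoters of 6 members are shown because they hold the letters of the elements just named. RefSeq promoter entries (GRCm38.p6) existed for 9 of the 10 members, with 13 windows, and the 250 bases before each start were searched on both strands. The motifs were the E-box CACGTG, the variant E-box CACGTT, the D-box TTANGTAA and the ROR element, spelled AANTA followed directly by GGTCA. Capitals mark the matches, which for the variant E-box appear here as its reverse complement. The windows are chr11:69098699-69098948 (plus strand) for Per1, chr4:151044666-151044915 (minus strand) for Per3 and chr10:85185055-85185304 (minus strand) for Cry1. They are chr2:92434070-92434319 (minus strand) for Cry2, chr11:98775378-98775627 (minus strand) for Nr1d1 and chr15:81802423-81802672 (plus strand) for Tef. All are written 5′ to 3′ along the gene.
Per1: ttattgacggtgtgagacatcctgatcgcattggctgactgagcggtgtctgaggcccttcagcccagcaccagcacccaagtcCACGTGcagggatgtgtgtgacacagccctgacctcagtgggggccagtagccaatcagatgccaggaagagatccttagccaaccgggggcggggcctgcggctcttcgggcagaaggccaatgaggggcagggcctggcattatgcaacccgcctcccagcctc
Per3: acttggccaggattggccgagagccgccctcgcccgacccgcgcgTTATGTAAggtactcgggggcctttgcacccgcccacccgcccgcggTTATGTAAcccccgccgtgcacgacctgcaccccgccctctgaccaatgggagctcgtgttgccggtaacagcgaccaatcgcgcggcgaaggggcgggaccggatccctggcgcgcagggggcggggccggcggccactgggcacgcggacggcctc
Cry1: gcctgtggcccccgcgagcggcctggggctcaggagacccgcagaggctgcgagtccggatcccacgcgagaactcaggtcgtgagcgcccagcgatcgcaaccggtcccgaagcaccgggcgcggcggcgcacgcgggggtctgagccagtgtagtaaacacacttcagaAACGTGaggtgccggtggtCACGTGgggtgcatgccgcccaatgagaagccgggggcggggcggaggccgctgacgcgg
Cry2: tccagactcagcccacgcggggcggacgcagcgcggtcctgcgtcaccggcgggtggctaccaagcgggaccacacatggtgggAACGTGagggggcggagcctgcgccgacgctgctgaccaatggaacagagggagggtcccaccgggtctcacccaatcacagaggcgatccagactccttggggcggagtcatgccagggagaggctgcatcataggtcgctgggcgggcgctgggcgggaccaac
Nr1d1: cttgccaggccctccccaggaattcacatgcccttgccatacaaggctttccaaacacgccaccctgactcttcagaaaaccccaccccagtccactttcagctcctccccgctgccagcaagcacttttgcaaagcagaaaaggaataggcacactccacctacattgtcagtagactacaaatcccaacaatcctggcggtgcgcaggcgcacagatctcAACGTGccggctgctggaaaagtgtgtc
Tef: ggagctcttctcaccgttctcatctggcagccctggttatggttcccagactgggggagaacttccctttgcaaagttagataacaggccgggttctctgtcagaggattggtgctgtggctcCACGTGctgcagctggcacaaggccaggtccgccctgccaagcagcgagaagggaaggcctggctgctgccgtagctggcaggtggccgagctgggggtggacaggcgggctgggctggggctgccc

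The E-box was found in Per1, Cry1 and Tef, which is 3 members, and in 6.02% of 32851 promoter windows of all genes. A second window of Tef, not shown, also held it, beginning 138 bases before the start. Counts here are of members, some with several windows, while the shares are per window. The variant E-box was found in Cry1, Cry2 and Nr1d1, against 3.85% of all windows. In Cry1 the E-box began 60 bases and the variant 79 bases before the start. Per3 alone among the members held the D-box, with copies that began 205 and 158 bases before the start, against 2.06% of all windows. No member window held the ROR element, which was in 0.177% of all windows. Clock, Nr1d2 and Dbp held none of the motifs in these windows, which says only that the letters are not in this stretch. A match is a description and not evidence of binding.

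The members are described in order of their role. All values are log2 expression values per array, so a difference of 1 is a doubling, and no gene's level is set against that of another gene. Clock, the activator that pairs with BMAL1, measured 9.79, 9.76 and 9.70 in double mutants, 9.61, 9.58 and 9.48 in single mutants, and 9.52 and 9.69 in wild type. All double mutants lay above all other arrays, but by as little as 0.02, and single mutants and wild type overlapped.

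Per1, a repressor of CLOCK and BMAL1 that is also induced by glucocorticoids, measured 8.98, 9.49 and 9.22 in double mutants, 9.25, 9.79 and 9.43 in single mutants, and 9.97 and 8.76 in wild type. The 2 wild type arrays were the highest and the lowest of all 8, so every mutant value lay between them. Per3, a further member of the Period family, measured 6.92, 6.41 and 6.57 in double mutants, 7.33, 7.25 and 6.77 in single mutants, and 6.72 and 6.14 in wild type. Every single mutant lay above both wild type arrays, by as little as 0.05, and the double mutants overlapped both other groups. The gene Uts2 overlaps Per3 in the RefSeq annotation.

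Cry2, a cryptochrome that represses CLOCK and BMAL1 together with the PER proteins, measured 6.80, 6.54 and 6.55 in double mutants, 6.93, 6.94 and 6.35 in single mutants, and 7.53 and 6.0 in wild type. As with Per1, wild type 1 was the highest and wild type 2 the lowest of the 8 arrays. Cry1, the other cryptochrome, measured 6.58, 6.12 and 5.93 in double mutants, 6.88, 6.11 and 5.37 in single mutants, and 5.69 and 5.55 in wild type. All double mutants lay above both wild type arrays, and the single mutants spanned the whole range.

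Nr1d1, which encodes the repressor REV-ERBα, measured 7.77, 8.29 and 6.91 in double mutants, 7.24, 7.63 and 9.25 in single mutants, and 8.78 and 8.68 in wild type. The wild type arrays were close to each other, all double mutants lay below them, and single mutant 3 lay above them. Nr1d1 and Thra overlap by 1075 bases in the annotation, and the sources used here do not state how the array separates them. Nr1d2, which encodes the related repressor REV-ERBβ, measured 8.44, 8.20 and 8.48 in double mutants, 9.16, 8.26 and 8.63 in single mutants, and 8.83 and 8.46 in wild type. The 3 groups overlapped.

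Dbp, a D-box activator that is itself a target of CLOCK and BMAL1, measured 8.17, 8.16 and 7.66 in double mutants, 8.43, 8.14 and 9.02 in single mutants, and 9.01 and 7.89 in wild type. Single mutant 3 and wild type 1 were high, and the groups overlapped. Tef, a D-box activator of the same family, measured 7.29, 7.09 and 7.29 in double mutants, 7.27, 7.43 and 7.47 in single mutants, and 8.36 and 7.52 in wild type. All 6 mutants lay below both wild type arrays, closely grouped, while wild type 1 stood 0.84 above wild type 2. A second, dimmer probe set of Tef, at 5.41, 5.15 and 5.35 in double mutants, 5.36, 5.11 and 5.24 in single mutants, and 5.94 and 5.78 in wild type, gave the same separation. Its wild type arrays lay closer together than those of the brighter probe set.

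**Figure D1:**
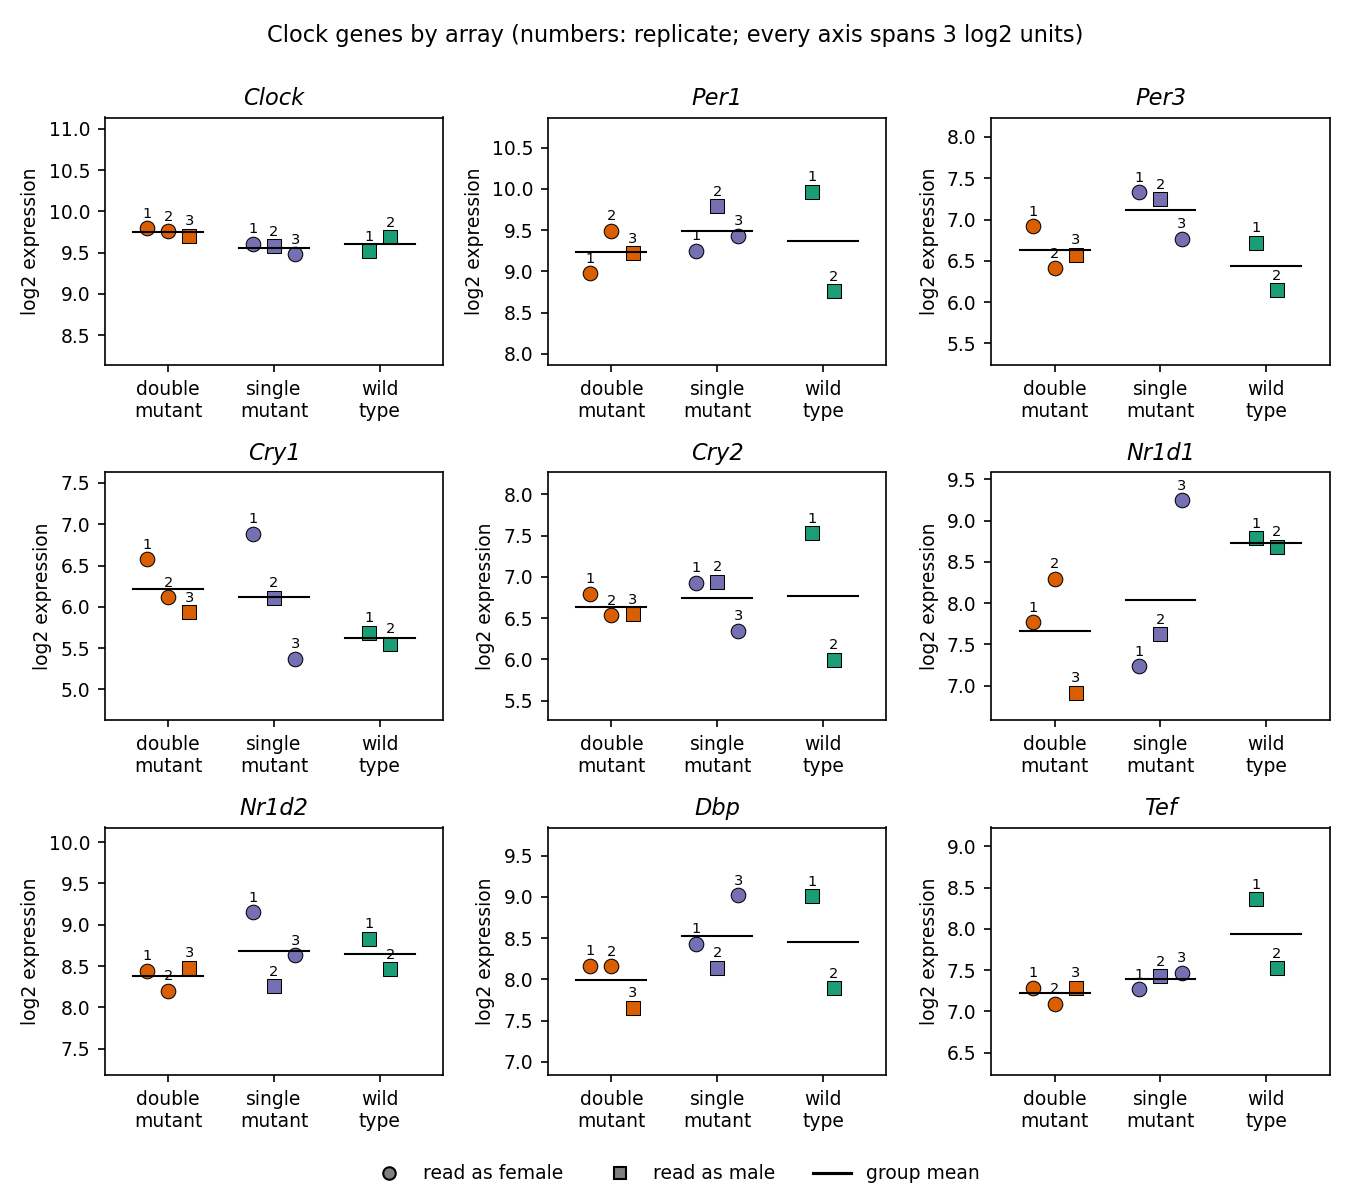
Log2 expression value of each of the 9 measured clock genes on each array, 1 panel per gene, with double mutants on the left, single mutants in the middle and wild type on the right; points are arrays (circles read as female, squares as male) and lines are group means. Per1 and Cry2 have their highest and lowest values in the 2 wild type arrays, Tef is lower in all 6 mutants, and Nr1d1 spreads most among the mutants.

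Genotype was tested with limma in 1 model of the 3 groups, with p-values adjusted over all tested genes and called under 0.05. The clock genes did not pass in any comparison. Between single mutants and wild type 0 of 8 members were called, where 0.028% of all tested genes were. Per3 and Tef had an unadjusted p under 0.05, which 23.2% of all tested genes also had. Per3 averaged 7.12 ± 0.30 (SD, n = 3) in single mutants and 6.43 ± 0.41 (SD, n = 2) in wild type, a difference of 0.68 (SE 0.25, adjusted p = 0.167 in limma) or 1.61-fold, which lay between 0.39 and 0.97 when single arrays were left out. The difference of Tef was -0.55 (SE 0.23, adjusted p = 0.206 in limma).

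Between double mutants and wild type 0 of 8 members were called, where 0.084% of all tested genes were. Only Tef had an unadjusted p under 0.05, against 21.6% of all tested genes. It averaged 7.22 ± 0.11 (SD, n = 3) in double mutants and 7.94 ± 0.59 (SD, n = 2) in wild type, a difference of -0.72 (SE 0.23, adjusted p = 0.140 in limma) or 1.65-fold. The difference of Nr1d1 was larger and less certain, with averages of 7.66 ± 0.70 (SD, n = 3) in double mutants and 8.73 ± 0.07 (SD, n = 2) in wild type. It came to -1.07 (SE 0.60, adjusted p = 0.328 in limma). Of the 6 other tested members, the differences lay between -0.46 for Dbp and 0.20 for Per3.

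Between double and single mutants 0 of 8 members were called, as was no gene of the whole table (0%), and 0 had an unadjusted p under 0.05, against 1.46% of all tested genes. Differences lay between -0.54 for Dbp (SE 0.33) and 0.20 for Clock (SE 0.11), and adjusted p was 1 for each member in limma. In the F test over the 3 genotypes 0 of 8 were called, where 0.028% of all tested genes were. Tef had the smallest adjusted p there, 0.259 in limma, and alone had an unadjusted p under 0.05, against 17.5% of all tested genes. With these group sizes a p above the threshold does not show that the genotypes were alike.

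The median difference over the 8 members was 0.0049 for single mutants minus wild type, where the median of all tested genes was -0.07. It was -0.20 for double mutants minus wild type, against -0.08 over all tested genes, and -0.28 for double minus single mutants, against 0.0013. The first 2 comparisons share the wild type arrays. For Cry1, a lower filter at the 50th percentile, which kept 13062 genes, gave a difference of 0.59 (SE 0.39, adjusted p = 0.442 in limma) between double mutants and wild type. It was 0.50 between single mutants and wild type and 0.09 between double and single mutants, and neither passed. At that filter 0 of 9 members were called, where 0.122% of the 13062 genes were between double mutants and wild type, 0.0153% between single mutants and wild type and 0.0153% in the F test.

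Groups that do not overlap are a common event in these data. Single mutants lay wholly above wild type for Per3, as did 19.3% of all tested genes, and wholly below for Tef, as did 29.1%. Double mutants lay wholly above wild type for Clock, as did 17.4% of all tested genes, and wholly below for Nr1d1 and Tef, as did 28.8%. Clock was also the only tested member with all double mutants above all single mutants, against 2.02% of all tested genes. No tested member had all double mutants below all single mutants, against 3.0%. All 6 mutants lay below both wild type arrays for Tef, as they did for 21.4% of all tested genes.

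The clock genes varied more among mice of 1 genotype than most genes did. The median SD within genotype was 0.39 over the 8 tested members and 0.21 over all tested genes, and 7 of the 8 lay above the median of all tested genes. Nr1d1 had an SD of 0.81, which exceeded that of 97.9% of tested genes, followed by Cry2 at 0.54 (93.2%) and Dbp at 0.49 (90.8%). Cry1, below the filter, had 0.52. Clock was the exception, with 0.07, which exceeded that of 3.4% of tested genes.

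A median of 29.3% of the variance of the tested members over the 8 arrays lay between genotypes, and 39.2% over all tested genes. With so few arrays in 3 groups, part of the variance lies between groups even where genotype has no effect. The share was 69.7% for Clock, 62.0% for Tef and 56.8% for Per3. It was 29.9% for Nr1d1, 28.7% for Dbp, 25.2% for Cry1 and 23.7% for Nr1d2, and it came to 9.23% for Per1 and 1.87% for Cry2. Thus the members fall into 3 in which most of the variance lay between genotypes and 6 in which most lay between mice of the same genotype. A median of 3.74% of the variance in the tested members lay between the sexes, and 9.43% over all tested genes. It was 26.0% for Tef, 19.0% for Cry1 and under 10% for the others. Both wild type mice were read as male, so the shares of genotype and sex overlap.

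**Figure D2:**
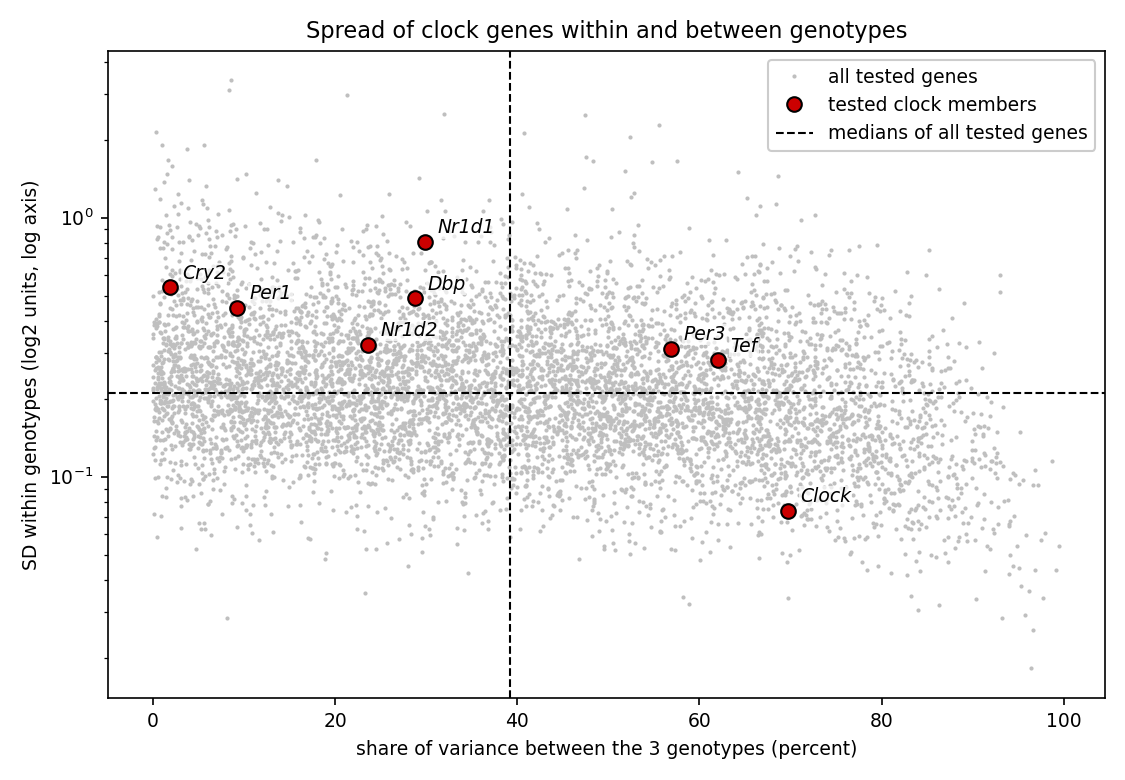
Spread within genotypes (SD in log2 units, log axis) against the share of variance over the 8 arrays that lay between the 3 genotypes (percent), with the 8 tested clock genes as labelled points, all tested genes as grey points and dashed lines at the medians of all tested genes. Nr1d1, Cry2 and Dbp combine a large spread within genotype with a small share between genotypes, while Clock and Tef have most of their variance between genotypes.

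The wild type pair carried much of this spread. Among the 6 mutants alone, an analysis added after the data were seen, the median SD within genotype was 0.27 over the tested members and 0.22 over all tested genes. Without the wild type arrays the SD of Cry2 was 0.26 and that of Tef 0.11. Nr1d1 stayed high at 0.90, which exceeded that of 98.1% of tested genes, and Cry1 had 0.58. For Nr1d1 the spread lay in both mutant groups, since single mutant 3 measured 2.01 above single mutant 1 and double mutant 2 measured 1.38 above double mutant 3. A range over 1 within a group was found for Nr1d1 in double mutants (7.47% of all tested genes) and in single mutants (11.0%), and for no other tested member in these groups. Within wild type it was found for Per1, Cry2 and Dbp (1.04% of all tested genes).

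Wild type 1 and wild type 2, both read as male, differed in most clock genes. Of the 9 measured members 8 were higher in wild type 1, as were 7 of the 8 tested, where 42.9% of all tested genes were. Cry2 was 1.54 higher in wild type 1 than in wild type 2 (2.90-fold), Per1 1.20 higher (2.30-fold) and Dbp 1.12 higher (2.17-fold). These 3 of 8 tested members exceeded a difference of 1, where 0.56% of all tested genes did. No tested member was lower in wild type 1 by more than 1, against 0.476%. With 1 array on each side, the gaps have no replicate check and no test.

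The other members had smaller gaps. On its brighter probe set Tef was 0.84 higher in wild type 1 than in wild type 2. Per3 was 0.58 higher, while Nr1d2 was 0.37, Cry1 0.13 and Nr1d1 0.10 higher. Clock was 0.17 lower in wild type 1. The median absolute gap was 0.71 over the tested members and 0.16 over all tested genes. Thus Nr1d1, the member with the largest spread among mutants, was among the most alike in the wild type pair.

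**Figure D3:**
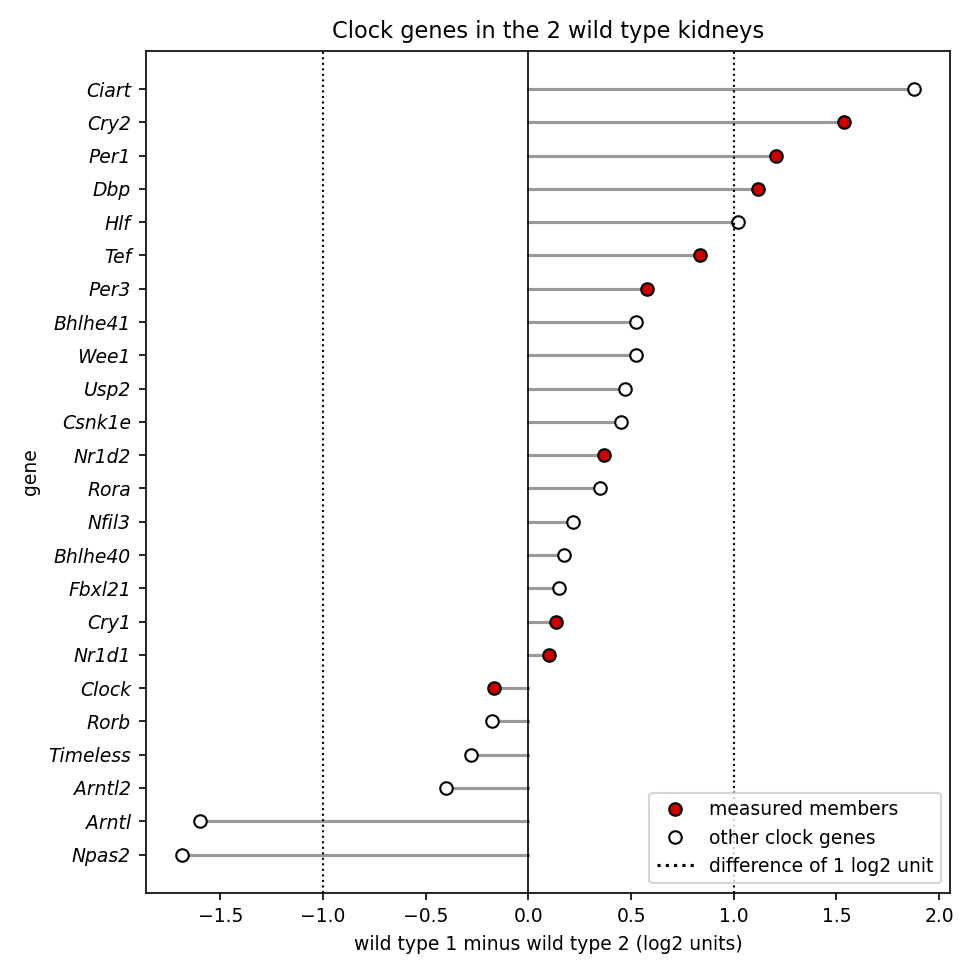
Wild type 1 minus wild type 2 in log2 units for the 9 measured clock genes (filled points) and 15 further clock genes (open points), in order of the difference, with dotted lines at a difference of 1. Ciart, Cry2, Per1, Dbp and Hlf are more than 1 higher in wild type 1, and Npas2 and Arntl are more than 1 lower.

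Further clock genes were described beside the members. Of 15 that were measured, 5 lay above the filter (Rora, Hlf, Bhlhe40, Usp2 and Wee1), and no value is given for Csnk1d, whose only probe set named several genes. In the limma fit of the 3 genotypes 0 of the 5 were called in each comparison and in the F test. Unadjusted p was under 0.05 for 2 of the 5 between double mutants and wild type (Bhlhe40 and Usp2), for 1 between single mutants and wild type (Bhlhe40) and for 0 between the mutants, against 21.6%, 23.2% and 1.46% of all tested genes. Bhlhe40, a repressor that competes for E-boxes, averaged 0.85 higher in double mutants than in wild type (SE 0.25, adjusted p = 0.123 in limma). Of its variance 78.3% lay between the sexes and 63.8% between genotypes, shares that overlap because both wild type mice were read as male. Among males alone its difference from wild type was 0.49 in the double mutant and 0.20 in the single mutant.

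Arntl and Npas2, of the activating arm of the loop, ran opposite to most members in the wild type pair. Arntl measured 6.55, 7.22 and 6.42 in double mutants, 5.75, 6.08 and 6.51 in single mutants, and 5.97 and 7.57 in wild type. Npas2, which can take the place of CLOCK, measured 5.75, 6.58 and 6.36 in double mutants, 5.43, 5.80 and 6.21 in single mutants, and 6.05 and 7.73 in wild type. Both were highest in wild type 2. Arntl was 1.60 lower in wild type 1 than in wild type 2 (3.03-fold) and Npas2 1.69 lower (3.22-fold), a gap in that direction of more than 1 that 0.467% of the 13062 genes above the 50th percentile had.

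Ciart, a repressor of CLOCK and BMAL1, measured 5.47, 6.58 and 6.39 in double mutants, 6.66, 6.49 and 6.83 in single mutants, and 7.99 and 6.12 in wild type. Hlf, the third D-box activator of the family of Dbp and Tef, measured 7.36, 7.24 and 6.90 in double mutants, 7.30, 7.15 and 7.81 in single mutants, and 8.08 and 7.06 in wild type. Wild type 1 was the highest array for both. Ciart was 1.88 higher in wild type 1 than in wild type 2 (3.67-fold) and Hlf 1.02 higher, and 0.406% of the 13062 genes were over 1 higher. Of the 15 further clock genes measured, 10 were higher in wild type 1 and 5 lower. Arntl, Npas2 and Ciart lay below the filter of the main test.

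**Figure D4:**
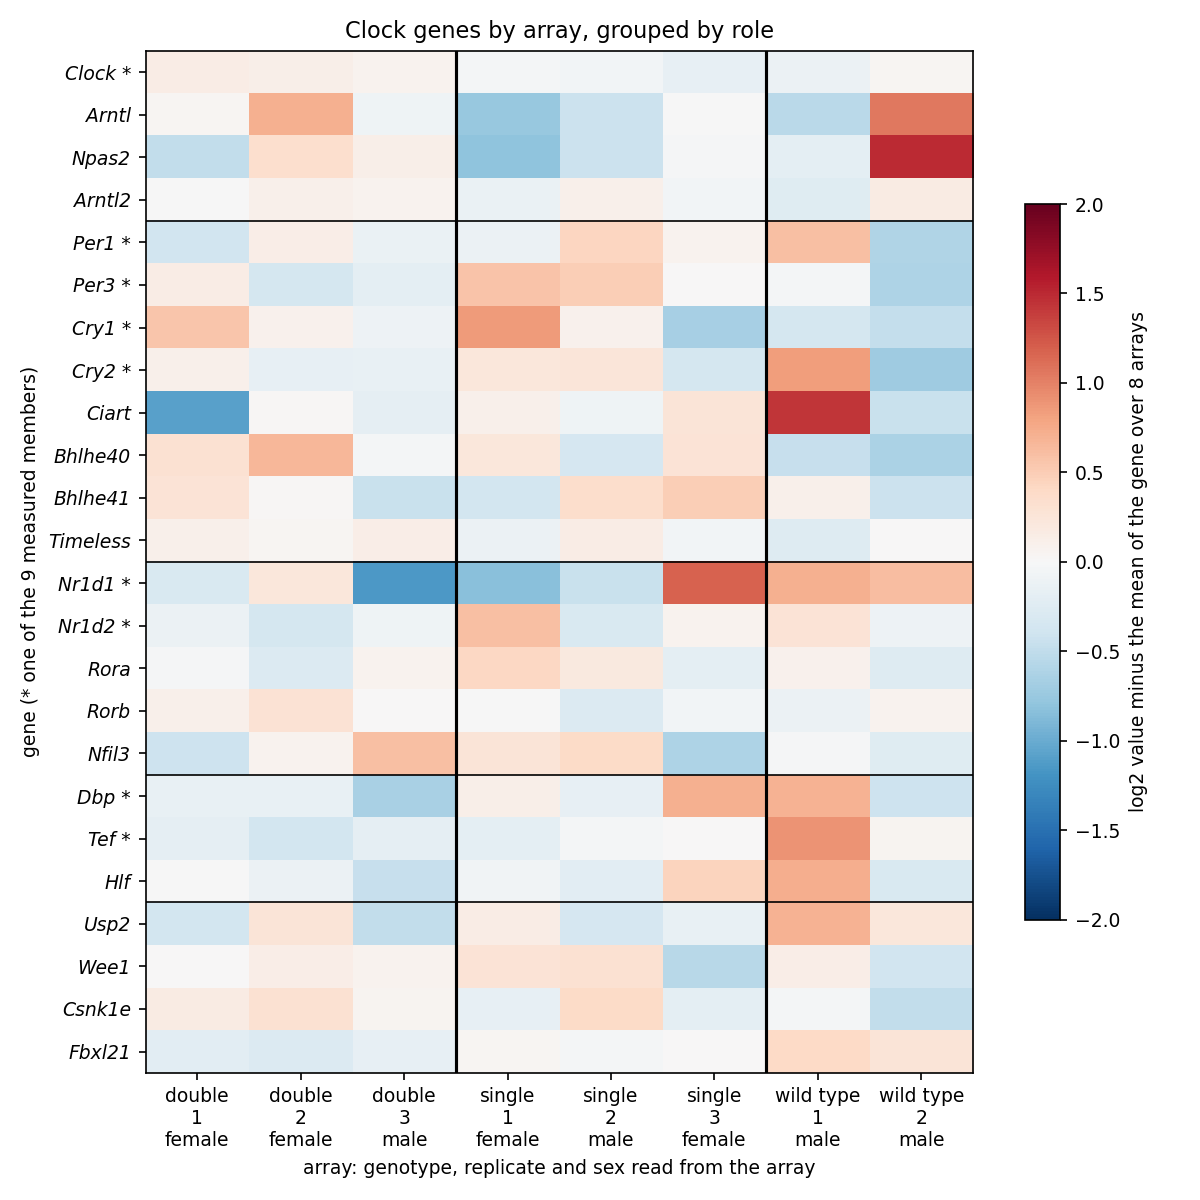
Log2 value of each measured clock gene on each array, minus the mean of that gene over the 8 arrays, with double mutants on the left, single mutants in the middle and wild type on the right. In wild type 1 Ciart, Tef, Cry2, Hlf, Nr1d1, Usp2, Dbp and Per1 are farthest above their mean, and in wild type 2 Npas2, Arntl and Nr1d1 are. Tef, Usp2, Fbxl21 and Nr1d1 are above their mean in both wild type arrays, and Nr1d1 is also high in single mutant 3.

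Arntl was set against each of the 9 measured members over the 8 arrays, which share genotype and sex differences, and 9 relations were computed with exact permutation p-values. Per3 had the strongest relation, with r = -0.86 (exact permutation p = 0.00796, adjusted 0.0717) and rho = -0.71 (exact permutation p = 0.0576, adjusted 0.259). Cry2 followed with r = -0.78 (exact permutation p = 0.0204, adjusted 0.0919) and rho = -0.81 (exact permutation p = 0.0218, adjusted 0.196). No relation passed after adjustment over the 9.

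Without wild type 2 and double mutant 2, the arrays farthest from the median of Arntl, r was -0.61 for Per3 (exact permutation p = 0.225) and -0.66 for Cry2 (exact permutation p = 0.142). Over these 6 arrays neither had an unadjusted p under 0.05. With each value taken relative to the mean of its genotype, r was -0.85 for Per3 (adjusted exact permutation p = 0.0461) and -0.90 for Cry2 (adjusted exact permutation p = 0.0297). In that setting the values of 1 genotype are not free of each other. Tef came next there, with r = -0.79 (adjusted exact permutation p = 0.0542), which did not pass. With the values as measured over all 8 arrays, the other members had r between -0.61 for Nr1d2 and 0.51 for Clock. Nr1d1, the repressor of Arntl, had 0.38.

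**Figure D5:**
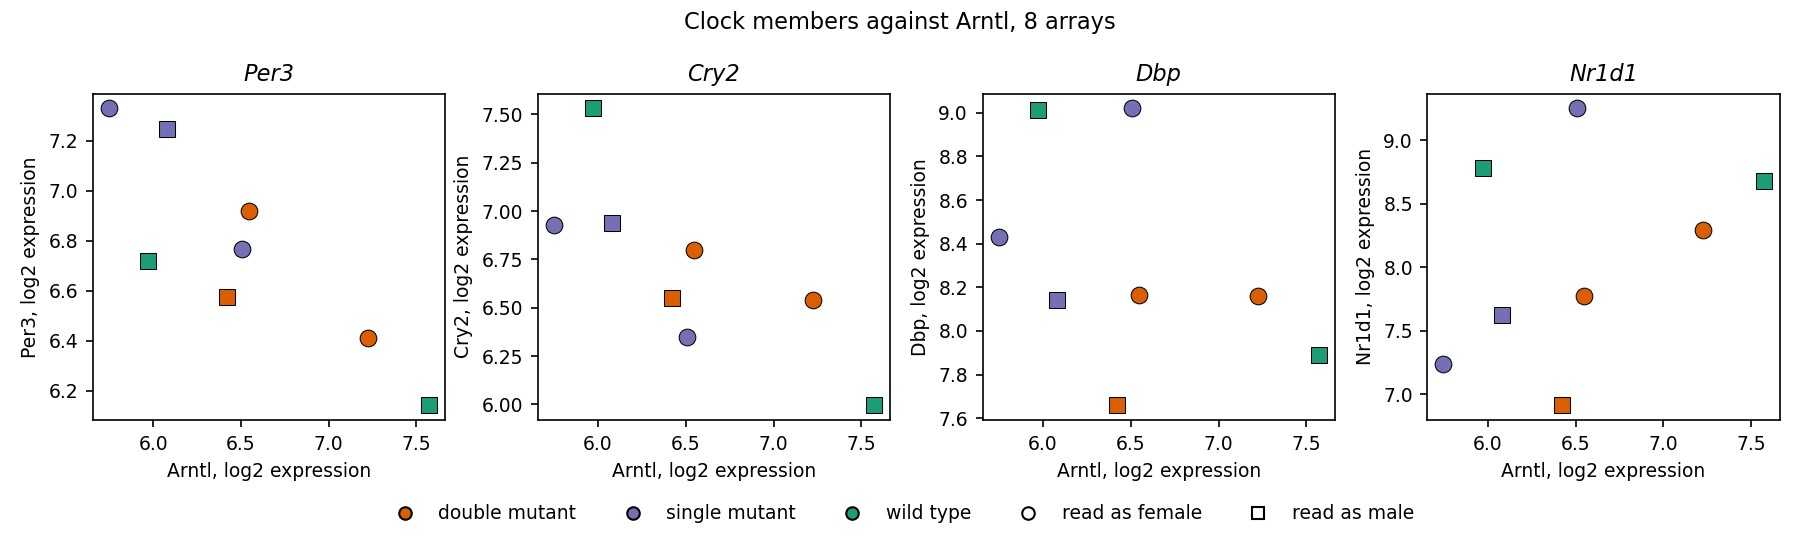
Log2 values of Per3, Cry2, Dbp and Nr1d1 against that of Arntl on each of the 8 arrays, 1 panel per gene, with points coloured by genotype and shaped by the sex read from the array. Per3 and Cry2 are lowest in wild type 2, where Arntl is highest, and r over the 8 arrays is -0.86 for Per3, -0.78 for Cry2, -0.42 for Dbp and 0.38 for Nr1d1.

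Dbp served as the clock output against which all other tested genes were ranked by Pearson's r over the 8 arrays, as a description with no test. Of 7144 genes, Hlf ranked first with r = 0.96, followed by Ank3 and Cobll1 at 0.91, Myo19 at 0.90, R3hdm2 at 0.89 and Slc8a1 at 0.88. At the other end were Srpk1 at -0.95, Rps15a-ps5 at -0.93, Ypel2 at -0.89 and Snord70, Sptlc2 and Zfp617 at -0.87. Among the members r with Dbp was 0.65 for Nr1d1, 0.59 for Tef and 0.56 for Per1. It was 0.50 for Nr1d2, 0.46 for Cry2, 0.27 for Per3 and -0.76 for Clock, and -0.26 for Cry1, which lies below the filter and was not ranked. Ranks over 8 arrays of mixed genotype and sex also hold genes that share those differences.

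Because both wild type mice were read as male, the fit was repeated with a term for sex, which is estimated from the mutants and assumed to be the same in each genotype. Double mutant 3 and single mutant 2 are the only mutant males, so this assumption has little check. Double minus single mutant went opposite ways in females and males for Cry2 (0.03 and -0.39) and Nr1d2 (-0.57 and 0.22). It went the same way for the other tested members. With the sex term many more genes of the table were called, and no clock member was. The larger shares of all tested genes given below rested on single arrays. Without single mutant 2 the share fell to 0% between single mutants and wild type, and to 16.3% between double mutants and wild type. Both shares were also far lower without wild type 2, a fit that leaves 1 wild type array. Of the 8 members 0 were called between single mutants and wild type, where 27.2% of all tested genes were, and 1 (Per3) had an unadjusted p under 0.05, against 43.3% of all tested genes. Between double mutants and wild type 0 were called, where 24.2% of all tested genes were, and 2 (Nr1d1 and Tef) had an unadjusted p under 0.05, against 41.7% of all tested genes. The largest difference was that of Nr1d1, at -1.65 (SE 0.60, adjusted p = 0.0783 in limma). In the F test 0 were called, where 17.7% of all tested genes were. Between double and single mutants 0 were called, against 0% of all tested genes.

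Females and males differed for 0 of 8 members in limma, where 10.2% of all tested genes were called, and 0 had an unadjusted p under 0.05, against 29.9% of all tested genes. Nr1d1 averaged 0.87 higher in females than in males of the same genotype (SE 0.48, adjusted p = 0.267 in limma). This difference rested on single arrays. Without single mutant 1 it was 1.33 and was called (adjusted p = 0.0198 in limma), without single mutant 3 it was 0.47 (adjusted p = 0.450), and no other array left out gave a call. Among males alone, where each mutant group has 1 array whose spread is taken from the other cells, 0 members were called between double mutants and wild type (16.3% of all tested genes) and 0 between single mutants and wild type (30.0%). Nr1d1 measured 6.91 in male double mutant 3 and 7.63 in male single mutant 2, against 8.78 and 8.68 in the wild type males.

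With the sex term 1 of the 5 further clock genes was called in each comparison with wild type, where 24.2% (double mutants) and 27.2% (single mutants) of all tested genes were. Usp2, a rhythmic deubiquitinase, was lower, with a difference from wild type of -0.92 in double mutants (SE 0.26, adjusted p = 0.0402 in limma) and of -0.84 in single mutants (SE 0.26, adjusted p = 0.0495). It measured 9.31, 9.92 and 9.18 in double mutants, 9.82, 9.33 and 9.52 in single mutants, and 10.37 and 9.90 in wild type. The groups overlapped only through double mutant 2, which was read as female. Of 8 fits that each left out 1 array, the call was kept in 1 for double mutants (without double mutant 2) and in 1 for single mutants (without double mutant 1), and adjusted p in limma reached 0.170 and 0.208 in the others. With the sex term both calls were also lost after quantile normalization (adjusted p = 0.0965 for double and 0.143 for single mutants in limma) and without a filter (0.105 and 0.124), and that for single mutants at the 50th percentile filter (0.0603). Bhlhe40 was the only further clock gene called between the sexes, 0.56 higher in females than in males of the same genotype (SE 0.13, adjusted p = 0.0404 in limma), and of the 8 fits only the one without double mutant 1 kept this call.

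Glucocorticoids set clock phase and induce Per1, so a list of 10 glucocorticoid-induced genes was described as well. In the fit of the 3 genotypes 0 of the 10 were called by limma in each comparison. Unadjusted p was under 0.05 for 3 between double mutants and wild type, for 1 between single mutants and wild type and for 0 between the mutants, against the same 21.6%, 23.2% and 1.46% of all tested genes. The mean of the list was 9.09, 9.13 and 9.39 in double mutants, 9.14, 9.53 and 8.57 in single mutants, and 9.63 and 8.93 in wild type. Wild type 1 was the highest array and single mutant 3 the lowest, followed by wild type 2.

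Zbtb16 measured 8.33, 8.61 and 8.88 in double mutants, 9.21, 9.86 and 6.94 in single mutants, and 9.02 and 7.26 in wild type. Pdk4, which restrains glucose oxidation, measured 10.15, 8.85 and 9.89 in double mutants, 10.90, 9.33 and 8.43 in single mutants, and 11.12 and 8.20 in wild type. For both genes wild type 2 and single mutant 3 were the 2 lowest arrays. Of the 10 genes 8 were higher in wild type 1 than in wild type 2, as were 42.9% of all tested genes. For 2 of them (Zbtb16 and Pdk4) the gap exceeded 1, as it did for 0.56% of all tested genes. Errfi1 and Mt1 were lower in wild type 1, and Errfi1 was highest in wild type 2, at 11.16. The part of glucocorticoid exposure in the clock values was not tested.

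With the sex term Mt1 and Mt2, metallothioneins of that list, were higher in double mutants than in wild type. The differences were 0.67 (adjusted p = 0.0207 in limma) and 1.13 (adjusted p = 0.0186), where 24.2% of all tested genes were called. Mt1 was also higher in single mutants than in wild type, by 0.51 (adjusted p = 0.0416 in limma), where 27.2% of all tested genes were called. Ddit4 was lower in females than in males, at a difference of -2.06 (adjusted p = 0.0173 in limma), where 10.2% of all tested genes were called. For double mutants the call of Mt1 was lost without double mutant 3 or either wild type array, and that of Mt2 without wild type 2. For single mutants the call of Mt1 was kept only without double mutant 2 or single mutant 3. The call of Ddit4 between the sexes was lost without single mutant 2.

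Markers of injury and of other cells were set beside the clock genes. The mean of 8 macrophage markers ranged from 8.20 to 8.52 in double mutants and from 7.40 to 8.91 in single mutants, and was 6.42 and 6.61 in wild type. That of 5 markers of injured tubule ranged from 8.13 to 9.37 in double mutants and from 7.56 to 8.96 in single mutants, and was 6.31 and 6.88 in wild type. That of 6 fibroblast markers ranged from 8.38 to 8.89 in double mutants and from 7.66 to 9.37 in single mutants, and was 6.69 and 6.66 in wild type. The list means of all 6 mutants lay above those of both wild type arrays, but not those of every marker. Of all tested genes 13.1% had all 6 mutants above both wild type arrays. Krt8, a keratin, measured 7.85 in single mutant 1 and 7.87 in single mutant 3, against 8.41 and 8.22 in wild type. In limma, between double mutants and wild type, 1 of the 5 injured tubule markers (Lcn2) was called, against 0.084% of all tested genes. Of the 6 tested macrophage and 5 tested fibroblast markers 0 were called. In these lists, in the same order, 4, 5 and 5 had an unadjusted p under 0.05, against 21.6% of all tested genes. Between single mutants and wild type 0 were called in each list, against 0.028% of all tested genes. There 3, 5 and 4 had an unadjusted p under 0.05, against 23.2% of all tested genes. The wild type pair differed in the injured tubule list through Havcr1, an injury marker of the proximal tubule, which measured 4.78 in wild type 1 and 7.92 in wild type 2. The part of these cells and of injury in the clock values was not tested. Adrenal markers, 0 of 6 above the filter, had array means between 4.67 and 4.81.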

How the data were processed

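The deposited table holds 1 log2 expression value per probe set and array. The log2 unit was read from the deposited values, which run from 4.20 to 13.43. The sources used here do not state how the authors normalized and summarized them. RNA was isolated with a Mirvana Paris kit and labelled with a FlashTag kit, per the labels' protocols. FlashTag is a kit for labelling small RNA, while the probe sets of the table are those of a whole-transcript gene array. The sources used here do not resolve this conflict. The values were used as deposited. Of 33793 probe sets 23521 named 1 gene. Each of the 1082 genes with several such probe sets was represented by the brightest on average. Genes with a mean over 6.64, the 75th percentile over the probe sets, were tested. Positions are from RefSeq (GRCm38).

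Differences came from limma 3.58.1 (lmFit and eBayes, R 4.3.3), two-sided, with Benjamini-Hochberg adjustment over 7145 genes. Correlations were tested two-sided over all orderings of the arrays (scipy 1.17.1). The fit was tested on simulated data. P-values measure the spread between the mice sampled, and precision is limited by how few arrays there are. The 9 measured members are named throughout. Genes most like Dbp were named as the 6 highest and 6 lowest by r, and other genes come from fixed lists. Members and lists were chosen with earlier results of these data known. Alternatives were no filter, a filter at the 50th percentile, quantile normalization, median centring, a sex term, 1 sex alone, a replicate block, a fit of only the groups compared and leaving out each array. The osteopontin gene is not reported here.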

Additional observations from a re-analysis of the deposited data

How the results depend on the processing

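The count of members called was 0 in the comparisons of genotypes under each alternative run, and of 500 alternative values of single members 469 kept their direction and their side of the threshold, 27 changed direction and 4 passed it. Among the further clock genes 1 (Usp2) was called against wild type, in both mutants, only with the sex term. Between females and males the count of members called ranged from 0 to 1 when single arrays were left out. The count of further clock genes there was 0 without a filter and 0 after quantile normalization, and 0 to 1 when single arrays were left out. Members correlated with Arntl numbered 1 after quantile normalization, 2 with values relative to the genotype mean, and 0 to 1 when single arrays were left out (Per3, -0.94 without wild type 1, adjusted exact permutation p = 0.0357).

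Correlations of deviations from the group mean between same-numbered arrays ran from -0.58 to 0.26. Such deviations cancel out within each small group and also carry sex, so they cannot show whether replicate numbers pair the arrays. With the replicate block 0 members were called in each comparison, and 0 genes of the whole table were, where 6 (double mutant minus wild type), 2 (single mutant minus wild type) and 0 (between mutants) were without it. The whole table gave 1728 (double mutant minus wild type) and 1946 (single mutant minus wild type) with the sex term. Without single mutant 2 these became 1167 and 0. It gave 344 for double mutant minus wild type with only those groups in the fit.

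Changes of direction all concerned differences that passed no test, and the cause was not tested. Single mutant minus wild type came to 0.13 for Clock after quantile normalization. With the sex term it came to 0.04 for Cry2, -0.13 for Nr1d2 and -0.28 for Dbp, and within males to 0.18, -0.39 and -0.31. With the replicate block it was 0.0913 for Cry2. Double mutant minus wild type of Per1 was 0.0118 with the sex term. Double minus single mutant was 0.0314 for Cry2 within females and 0.22 for Nr1d2 within males. The r of Clock with Arntl was -0.0181 after quantile normalization.

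When single arrays were left out, single mutant minus wild type ranged from -0.13 to 0.0396 for Clock, -0.47 to 0.73 for Per1, -0.79 to 0.74 for Cry2, -0.20 to 0.25 for Nr1d2 and -0.48 to 0.64 for Dbp. Double mutant minus wild type ranged from -0.74 to 0.47 for Per1, -0.0856 to 0.49 for Per3, -0.90 to 0.63 for Cry2 and -1.02 to 0.10 for Dbp. Double minus single mutant of Nr1d1 ranged from -0.78 to 0.23, and r of Tef with Arntl from -0.48 to 0.0686. Leaving out a wild type array gave the extremes for Per1 and Cry2. Without wild type 1, Tef differed from wild type by -0.30 in double and -0.13 in single mutants.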

Other observations

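Fbxl21, a ubiquitin ligase subunit that acts on cryptochromes, was chosen here after its values were seen. It measured 4.94, 4.88 and 4.98 in double mutants, 5.18, 5.11 and 5.16 in single mutants, and 5.55 and 5.40 in wild type. The 3 genotypes did not overlap. No share of all genes with this order is given here, so how unusual the order is cannot be judged. These values lie below the filter on low values, near the array medians. In a fit without a filter the difference of double mutant minus wild type was -0.54 (SE 0.06, adjusted p = 0.0805 in limma), which did not pass. In that fit 0.0451% of 22180 genes were called. Of its variance 94.9% lay between genotypes, against a median of 39.2% over all tested genes, which lie above the filter. This is a description of a gene singled out for its pattern. Its p-value and its share of variance come from the same values, so they lend the pattern no support.

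Of 7 genes that respond to heat, cold or other stress, 6 were measured and 5 tested, and 0 were called by limma in the fit of the 3 genotypes. Their mean per array was 8.53, 8.67 and 8.10 in double mutants, 8.45, 8.41 and 8.41 in single mutants, and 8.33 and 8.38 in wild type. Within the wild type pair the list went both ways, with wild type 1 minus wild type 2 at -0.57 for Dnajb1 and 0.54 for Cirbp.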
